A study of Mus musculus with 16 samples.

Results

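Blood vessels of brown fat were followed through the transcripts of 35 marker genes, 24 of endothelial cells and 11 of mural cells (pericytes and smooth muscle cells), among 38924 Ensembl genes in a table of raw read counts. The members were found by matching their symbols to the Ensembl identifiers of the table, and all 35 were matched and passed the filter on low counts, each with at least 31 reads in every library. Bulk RNA sequencing had been done on interscapular brown fat of 13-week-old C57BL/6J mice, with 4 libraries in each of 4 groups. The groups were brown-fat-specific Akt2 knockout (KO) at 22 °C, wild-type littermates (WT) at 22 °C, KO at 30 °C and WT at 30 °C, each after 4 weeks of acclimation from 9 weeks of age. Temperatures of 22 °C and 30 °C are called room temperature and thermoneutral in the labels. The knockout was made with UCP1-CreER, a tamoxifen-inducible Cre recombinase expressed from the promoter of Ucp1, a gene of brown adipocytes, so vascular cells are not its intended site. The sources used here do not give the tamoxifen dosing, or whether WT mice carried the Cre or received tamoxifen. The labels number the libraries without naming separate animals for them, and the p-values then reflect only how far these samples spread, a spread that may be technical.

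Brown fat is one of the most densely vascularised tissues, and its capillaries deliver oxygen, glucose and lipoprotein lipids to the adipocytes and carry away heat. Capillary endothelial cells are joined by VE-cadherin and claudin-5, are kept alive and quiescent by the VEGF and TIE receptors, and are covered by pericytes that endothelial PDGF-B recruits through PDGFRβ. Arterioles carry instead a sheath of smooth muscle that contracts through smooth muscle actin and myosin. In whole tissue, fewer cells of a type and less RNA per cell cannot be told apart, and each level below is a share of the RNA of all cells, fat cells included.

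Libraries held between 12751528 and 23866743 counts. Akt2, the targeted gene, was measured at 76.3, 85, 89.3 and 78.2 CPM in KO and 216, 261, 224 and 226 CPM in WT at 22 °C, and at 81, 66.2, 74.4 and 56.2 CPM in KO and 196, 192, 221 and 205 CPM in WT at 30 °C, so every KO library was below every WT library. CPM denotes counts per 1000000 of a library size adjusted by the trimmed mean of M-values (TMM), whose factors were 0.954 to 0.999 in KO and 0.851 to 0.928 in WT at 22 °C, and 1.03 to 1.08 in KO and 1.07 to 1.1 in WT at 30 °C. Ucp1, which marks brown adipocytes, lay between 1412 and 8756 CPM in the 16 libraries. Transcripts of 12 skeletal muscle genes made up over 0.1% of counts in 4 libraries, namely KO replicate 1 at 22 °C (0.675%), KO replicates 1 (0.125%) and 2 (0.415%) at 30 °C and WT replicate 2 at 30 °C (0.272%). The other libraries held at most 0.0963%.

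One library stood apart in its vascular genes. KO replicate 1 at 22 °C was the lowest of its group for 20 of the 35 members and the highest for 11. Kdr, the main VEGF receptor of endothelium, had 123 CPM there and 281 to 305 CPM in the other KO libraries at 22 °C. Cldn5, which encodes claudin-5, had 123 CPM there and 44.7 to 55.2 CPM in the others. Clec14a, an endothelial lectin-like receptor, had 2.93 CPM against 9.79 to 10.5 CPM in the others, while Ecscr, an endothelial surface protein, had 19.7 CPM against 7.9 to 9.29 CPM. Activation genes of venous endothelium were also high in it. Selp, which encodes P-selectin, had 45.6 CPM there and 0.49 to 0.802 CPM in the other KO libraries at 22 °C. Counts of calls that use KO mice at 22 °C are therefore also given without this library, which also held the highest share of skeletal muscle transcripts. The part of muscle RNA in these values was not tested.

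**Figure D1:**
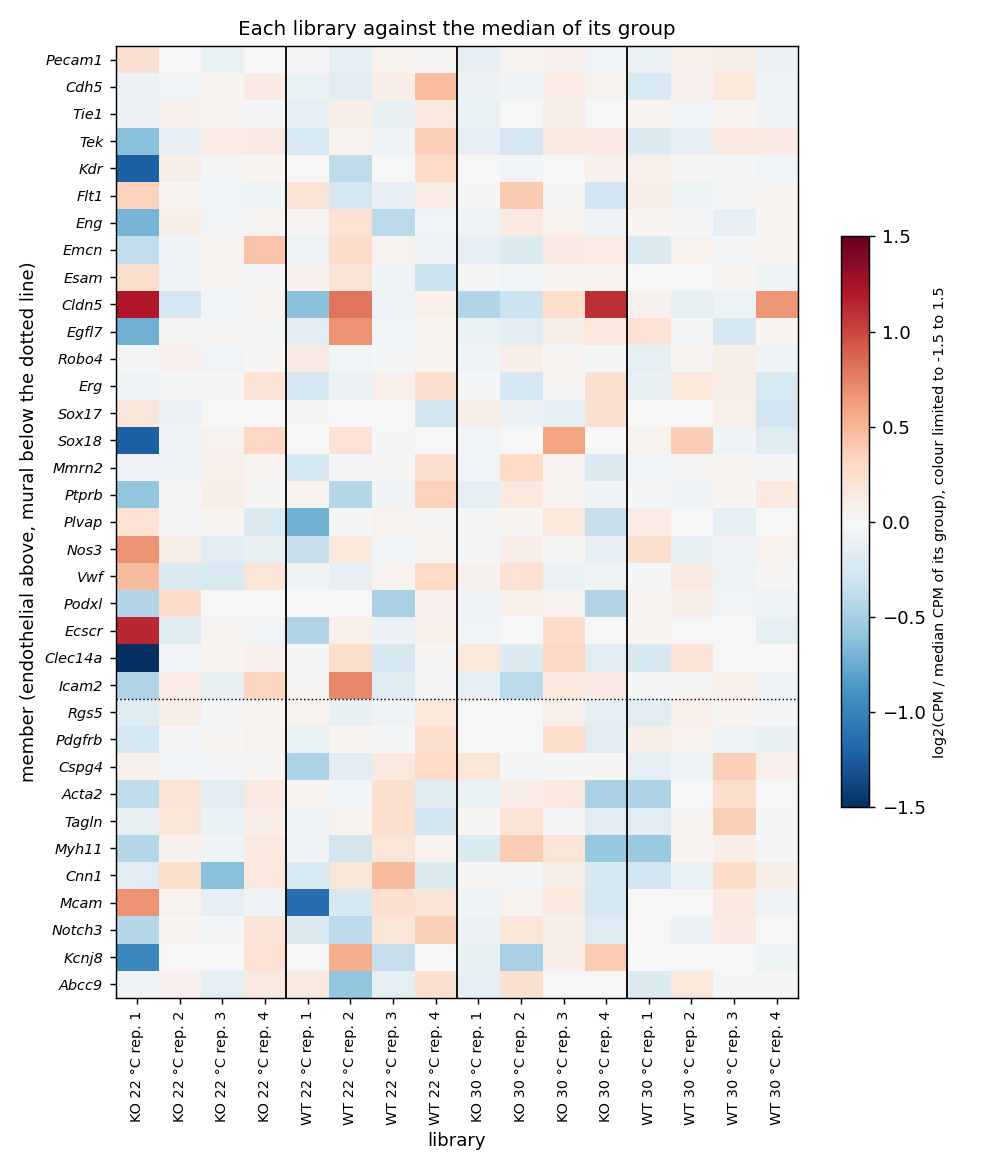
Each cell shows a library's CPM relative to the median of its own group on a log2 scale (red above, blue below, colour limited to -1.5 to 1.5), for the 24 endothelial and 11 mural members and 16 libraries ordered KO and WT at 22 °C, then KO and WT at 30 °C. The first column, KO replicate 1 at 22 °C, holds most of the strongest colours, for example for Kdr, Cldn5, Ecscr and Clec14a.

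To show the DNA upstream of members that moved together, the bases before the transcription start were read from RefSeq promoter windows (GRCm38.p6). Windows of 19 of the 35 members were used. Pdgfrb and Ecscr, which lie on the same chromosome, were left out of the search. The count of 19 is therefore not the number of members that have a window. Of the 23 windows used, 10 shared no base with an annotated exon. Printed here are 4 of those 10, from genes called lower at 22 °C in WT, each 250 bases long, 5′ to 3′ on the gene's strand. Capitals mark AGGAA, a core of the sites of ETS factors such as ERG, or its reverse complement TTCCT.
Tek (chr4:94739039-94739288, plus strand): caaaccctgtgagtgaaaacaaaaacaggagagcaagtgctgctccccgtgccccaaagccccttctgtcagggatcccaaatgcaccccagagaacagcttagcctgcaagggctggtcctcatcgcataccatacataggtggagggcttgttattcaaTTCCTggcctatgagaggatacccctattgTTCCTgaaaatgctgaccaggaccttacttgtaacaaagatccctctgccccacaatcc
Flt1 (chr5:147726012-147726261, minus strand): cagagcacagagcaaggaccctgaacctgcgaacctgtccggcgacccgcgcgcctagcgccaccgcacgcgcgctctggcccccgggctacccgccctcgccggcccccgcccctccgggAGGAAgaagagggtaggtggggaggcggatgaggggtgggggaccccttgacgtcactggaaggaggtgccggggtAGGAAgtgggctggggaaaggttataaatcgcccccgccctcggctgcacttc
Rgs5 (chr1:169655251-169655500, plus strand): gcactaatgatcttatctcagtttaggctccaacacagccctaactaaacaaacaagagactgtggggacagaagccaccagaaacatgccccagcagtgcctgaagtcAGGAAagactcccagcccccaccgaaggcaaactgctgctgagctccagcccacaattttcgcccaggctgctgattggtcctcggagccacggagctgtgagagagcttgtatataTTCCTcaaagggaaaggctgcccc
Notch3 (chr17:32166891-32167140, minus strand): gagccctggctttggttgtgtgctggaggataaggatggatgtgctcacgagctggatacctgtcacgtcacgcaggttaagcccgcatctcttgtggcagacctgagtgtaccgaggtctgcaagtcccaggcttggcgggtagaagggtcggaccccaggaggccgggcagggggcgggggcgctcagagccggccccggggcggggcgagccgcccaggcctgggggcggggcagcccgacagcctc
AGGAA was searched on both strands, and its matches overlap no other motif reported here. It occurred 2 times each upstream of Tek, Flt1 and Rgs5, and these letters were not found in the window of Notch3. At least 1 match lay in 11 of 15 endothelial windows (73.3%) and 4 of 8 mural windows (50%), beside 60.3% of all 32851 windows. The share of all windows keeps the chromosome of Pdgfrb and Ecscr, so it is not fully matched to the member shares. A match here is a description of the letters and not of a bound site.

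At the level of single genes, per kilobase of exon, the pericyte gene Rgs5, a regulator of G-protein signalling, was the highest member in every group. It averaged 120 ± 9.56 CPM per kb in KO and 86.6 ± 7.22 CPM per kb in WT at 22 °C, and 140 ± 8.85 CPM per kb in KO and 128 ± 9.24 CPM per kb in WT at 30 °C (SD, n = 4 each). Cdh5, which encodes VE-cadherin, and Cldn5 followed in all groups. In WT at 30 °C Cdh5 averaged 77.4 ± 8.84 and Cldn5 72.2 ± 20.1 CPM per kb, which differed by less than their spread. Vwf, the platelet-binding von Willebrand factor, Cnn1, the smooth muscle calponin, and Clec14a were the lowest members in all groups, at 0.804 to 2.2 CPM per kb on average. Cspg4, the proteoglycan NG2 of mural and some other stromal cells, ranked 30 of 35 in KO and 17 in WT at 22 °C, and 32 in KO and 29 in WT at 30 °C.

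Housing at 22 °C went with lower endothelial transcripts in WT brown fat. In WT, 15 of the 24 endothelial members fell at 22 °C against 30 °C and none rose (edgeR quasi-likelihood test, Benjamini-Hochberg adjusted p under 0.05 over all 14103 genes tested), and all 24 fold changes were below 0. Over all genes tested, 38.3% were called in either direction and 17.8% as lower. The median log2 fold change of the members was -0.44, beside -0.03 over all genes. The summed CPM of the endothelial members was 1570 to 1829 in the 22 °C libraries and 2373 to 2409 in the 30 °C libraries, which did not overlap. With library totals alone in place of TMM factors the median of all genes moved to -0.31 and that of the endothelial members to -0.72. Such a change of scaling moves all genes by about the same amount, so it cannot test the members' place relative to all genes.

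Receptors of the TIE system were among the plainest. Tie1 (chromosome 4, 118471191 to 118490061, minus strand), an orphan receptor that modulates angiopoietin signalling, had 102, 121, 104 and 125 CPM in WT at 22 °C, against 197, 186, 196 and 184 CPM in WT at 30 °C. All 4 cool libraries were below all 4 warm ones, a log2 fold change of -0.75 (SE 0.0764, adjusted p = 3.70e-06 by edgeR). Tek, which encodes TIE2, the angiopoietin receptor, had 35.4, 43.1, 39.9 and 53.3 CPM at 22 °C and 56.3, 59.5, 72.1 and 70.6 CPM at 30 °C (log2 fold change -0.59). The cool and warm Tek libraries did not overlap. Flt1, the VEGF receptor that acts largely as a decoy, had 167, 123, 134 and 158 CPM at 22 °C and 214, 189, 196 and 203 CPM at 30 °C (-0.46). Ptprb, the phosphatase that restrains TIE2, had 123, 88.6, 115 and 151 CPM against 179, 177, 187 and 202 CPM (-0.64), again with no overlap. Kdr, at 160 to 256 CPM against 256 to 276 CPM, was not called (-0.34, adjusted p = 0.207 by edgeR), nor was Eng, the TGFβ co-receptor endoglin (-0.13).

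Junction and matrix genes followed the same direction. Cdh5 (chromosome 8, 104101625 to 104144511, plus strand) had 167, 161, 192 and 247 CPM in WT at 22 °C, against 280, 342, 366 and 312 CPM at 30 °C, with a log2 fold change of -0.76 (SE 0.121, adjusted p = 1.77e-04 by edgeR). The highest cool library, replicate 4, stayed below the lowest warm one. Mmrn2, an endothelial matrix protein, had 26.2, 31.1, 31.7 and 37.4 CPM at 22 °C and 53.9, 56.2, 56.8 and 54.7 CPM at 30 °C (-0.81, SE 0.108, adjusted p = 4.13e-05 by edgeR). Pecam1, the CD31 adhesion molecule, had 137, 125, 144 and 140 CPM at 22 °C and 171, 193, 196 and 172 CPM at 30 °C (-0.43). Every cool Pecam1 library was below every warm one. Esam, a junctional adhesion molecule, had 81, 89.7, 74.2 and 62.1 CPM against 111, 111, 114 and 106 CPM (-0.53), and Robo4, a vascular guidance receptor that stabilises vessels, had 53.2, 47.4, 47.9 and 50 CPM against 60.1, 68.8, 71 and 64.5 CPM (-0.41), both without overlap.

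Podxl, Ecscr, Egfl7 and Vwf also fell. Podxl, a sialomucin of the luminal surface, had 85, 85.5, 60.8 and 89.4 CPM in WT at 22 °C and 123, 127, 116 and 114 CPM in WT at 30 °C (-0.58). Ecscr had 6.35, 9.18, 8.19 and 9.18 CPM against 14.4, 13.9, 14 and 12.7 CPM (-0.74), and neither gene overlapped between the temperatures. Egfl7, a secreted endothelial protein, had 78.5, 141, 86 and 90.5 CPM against 170, 143, 124 and 149 CPM (-0.57), where cool replicate 2 reached into the warm range. Vwf had 16.1 to 21.6 CPM against 23 to 26.5 CPM (-0.42). The Egfl7 call ended when cool replicate 1, 3 or 4 or warm replicate 1, 2 or 4 was left out, that of Vwf when cool replicate 1 or 2 or warm replicate 2 was, and that of Ecscr without WT replicate 1 at 22 °C.

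Transcription factors of endothelial identity were among the members that fell. Erg, an ETS factor needed to keep the endothelial program, had 15.3, 17.2, 19.3 and 21.6 CPM in WT at 22 °C and 26.7, 32.1, 30.9 and 24.6 CPM at 30 °C (log2 fold change -0.64). Sox17, an arterial SOX factor, had 17.4, 17.1, 17.2 and 14.2 CPM against 22.3, 22.6, 23.7 and 18.4 CPM (-0.40), with no overlap. Sox18, a SOX factor of vascular and lymphatic development, had 42.8 to 50.9 CPM against 46.9 to 68.5 CPM and was not called (-0.29, adjusted p = 0.358 by edgeR). Endothelial members not called in WT were Kdr, Eng, Emcn, Cldn5, Sox18, Plvap, Nos3, Clec14a and Icam2. Of these, Cldn5 had the lowest fold change (-0.99, adjusted p = 0.0554 by edgeR) and spread widely, from 30.5 to 81.8 CPM at 22 °C against 82.7 to 144 CPM at 30 °C. Plvap, the diaphragm protein of fenestrae and caveolae, had 9.41 to 16.1 CPM against 16.4 to 19.4 CPM (-0.35), and Emcn, the capillary and venous sialomucin endomucin, had 22.5 to 28.8 CPM against 24.4 to 29.5 CPM (-0.16). Nos3, the endothelial nitric oxide synthase, had 27.9 to 39.6 CPM against 33 to 42.3 CPM (-0.08), and 25.2% of its exon bases are shared with an antisense gene, whose reads cannot be told apart without a stated strand setting.

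Mural genes split in WT. Of 11 members, 4 fell and 1 rose at 22 °C against 30 °C, beside the 17.8% of all genes called lower and 20.5% called higher, and the median was -0.42. Notch3 (chromosome 17, 32120820 to 32166852, minus strand), the Notch receptor of mural cells, fell most, at 35.5, 31.4, 46.8 and 52.8 CPM at 22 °C against 92.8, 87, 101 and 92.2 CPM at 30 °C (log2 fold change -1.16, SE 0.156, adjusted p = 4.19e-05 by edgeR). Pdgfrb, which encodes PDGFRβ, had 43.7, 47.5, 45.8 and 55.6 CPM against 84, 81.9, 75.6 and 72.9 CPM (-0.71, SE 0.102, adjusted p = 7.70e-05). Rgs5 had 405, 361, 375 and 435 CPM against 527, 624, 603 and 580 CPM (-0.57, SE 0.0831, adjusted p = 8.90e-05). For all 3 genes every cool library lay below every warm one. Abcc9, the regulatory subunit of the pericyte potassium channel, had 45.2, 27.4, 37.4 and 48.6 CPM against 46.2, 59.4, 52.6 and 54.1 CPM, the ranges overlapping, with -0.42 (SE 0.143, adjusted p = 0.0305), a call that ended when cool replicate 2 or 3 or warm replicate 2 or 4 was left out, without the libraries rich in muscle transcripts, and in a fit of these groups alone.

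Cspg4 (chromosome 9, 56865033 to 56899870, plus strand) went the other way. It had 81.4, 101, 126 and 140 CPM in WT at 22 °C, against 56.7, 59.7, 80.2 and 66 CPM in WT at 30 °C, with no overlap and a log2 fold change of 0.77 (SE 0.141, adjusted p = 5.43e-04 by edgeR). The ratio of Cspg4 to Pdgfrb within a library, which needs no scaling between libraries, was 1.86 to 2.76 at 22 °C and 0.675 to 1.06 at 30 °C. Pdgfrb fell in the same libraries (-0.71), so this ratio joins both changes and is no test of the Cspg4 rise alone. The contractile genes Acta2, Tagln, Myh11 and Cnn1 were not called in WT, with log2 fold changes of 0.20, 0.12, -0.24 and -0.55. Kcnj8, the pore subunit of the channel that Abcc9 regulates, had 27.1, 39.5, 21.3 and 27 CPM at 22 °C and 21, 20.9, 21.1 and 19.8 CPM at 30 °C, and was not called (0.47). Mcam, the CD146 adhesion molecule, spread from 50.9 to 134 CPM at 22 °C and from 133 to 155 CPM at 30 °C, and was not called either (-0.47).

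**Figure D2:**
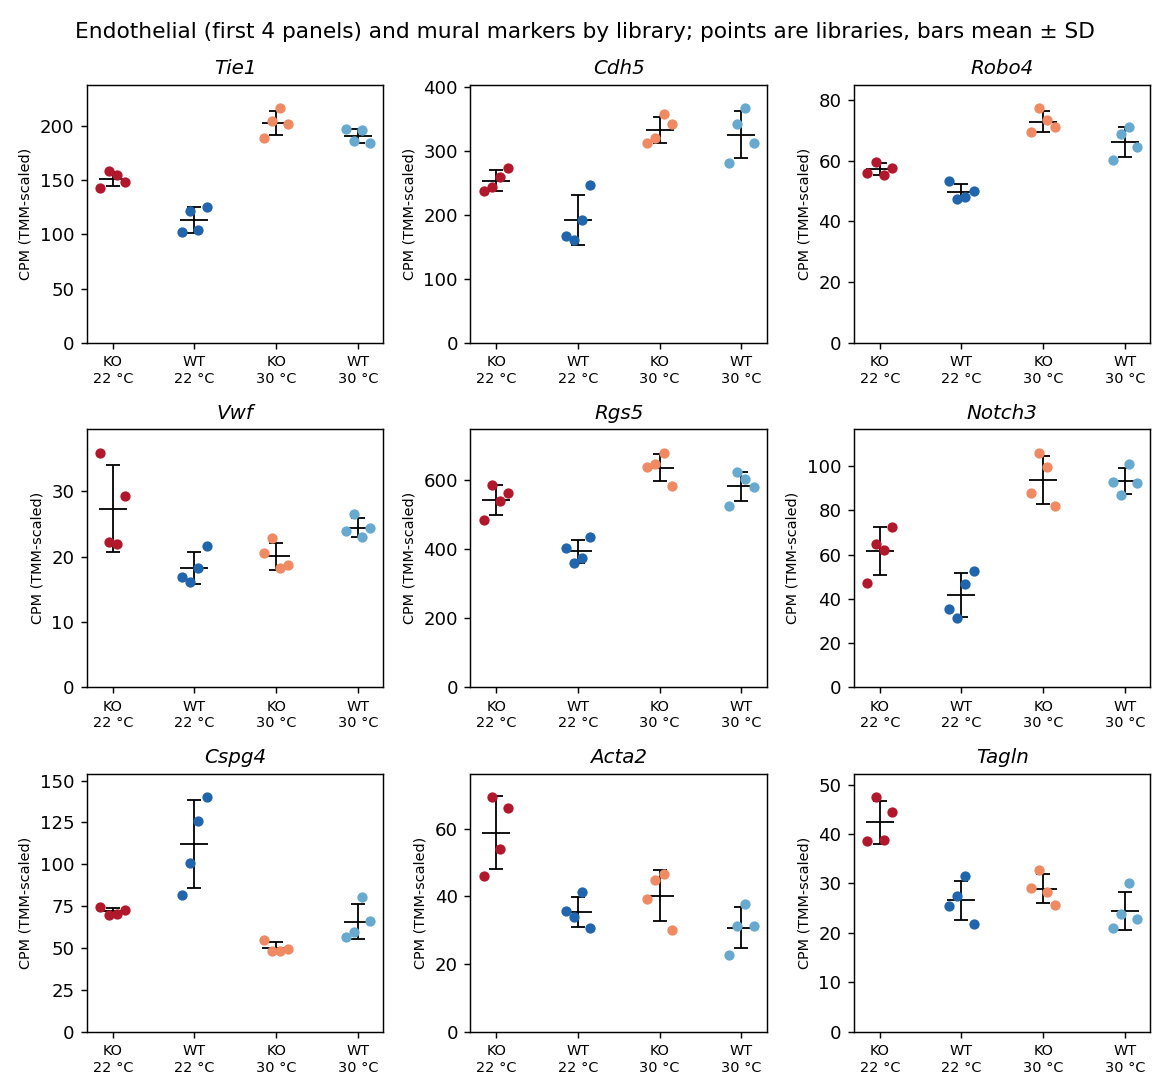
CPM of 4 endothelial members (Tie1, Cdh5, Robo4, Vwf) and 5 mural members (Rgs5, Notch3, Cspg4, Acta2, Tagln), with 1 point per library, the mean as a bar and 1 SD as whiskers, for KO and WT at 22 °C and KO and WT at 30 °C. Tie1, Cdh5, Rgs5 and Notch3 are lowest in WT at 22 °C, Cspg4 is highest there, and Acta2 and Tagln are highest in KO at 22 °C.

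Temperature was then compared within the knockout. In KO, 8 of 24 endothelial members fell at 22 °C against 30 °C and 1, Vwf, rose, beside 26.7% of all genes called (13% lower and 13.8% higher), with a median of -0.23 for the members and 0.01 for all genes. Without KO replicate 1 at 22 °C, 12 fell and none rose, beside 2017 of 14293 genes lower and 1821 higher. The summed endothelial CPM was 1876 to 2178 at 22 °C and 2403 to 2696 at 30 °C. Cdh5, Tie1, Esam, Egfl7, Robo4, Erg and Mmrn2 were called lower at 22 °C in both genotypes. These 7 calls compare different libraries in each genotype, but share 1 estimate of the spread from all 16 libraries. Icam2, an adhesion molecule of resting endothelium, had 10.3, 15.2, 13 and 17.6 CPM at 22 °C and 22.8, 18.8, 27.6 and 27.1 CPM at 30 °C and was called lower in KO (-0.78). Its WT libraries had 12.7, 20.6, 11 and 12.4 CPM against 17.9, 18.3, 19.1 and 17.5 CPM, and their value of -0.36 was not called.

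Tie1 had 143, 158, 155 and 148 CPM in KO at 22 °C, against 189, 204, 216 and 202 CPM in KO at 30 °C, a log2 fold change of -0.43 (SE 0.076, adjusted p = 9.79e-04 by edgeR). Esam had 92.3, 73.5, 78.4 and 75.5 CPM against 112, 111, 117 and 119 CPM (-0.52), and Erg had 17.7, 18.4, 19 and 21.5 CPM against 29.6, 25, 30.3 and 35.1 CPM (-0.65). In each of these 3 genes the temperature groups were apart. Egfl7 had 69.9, 117, 117 and 114 CPM in KO at 22 °C and 169, 162, 193 and 201 CPM in KO at 30 °C (-0.80), and Robo4 had 56, 59.6, 55.3 and 57.7 CPM against 69.4, 77.2, 73.5 and 71 CPM (-0.35). Cdh5 had 237, 243, 259 and 273 CPM against 312, 320, 357 and 342 CPM (-0.40) and Mmrn2 had 39.1, 38.5, 42.5 and 41.7 CPM against 56.4, 71.4, 59.6 and 50.2 CPM (-0.55). None of these 4 genes overlapped between the temperatures. The WT values were -0.53 for Esam and -0.64 for Erg, close to those of KO. The Cdh5 call ended without KO replicate 3 at 30 °C (adjusted p = 0.069 by edgeR), and those of Cdh5 and Mmrn2 ended without the libraries rich in muscle transcripts. Their fold changes were then -0.44 (adjusted p = 0.0857 by edgeR) and -0.42 (0.051). That fit has fewer KO libraries, lacking replicate 1 at 22 °C and replicates 1 and 2 at 30 °C. Pecam1, Cldn5, Nos3 and Ecscr were called lower when KO replicate 1 at 22 °C was left out, with log2 fold changes of -0.27, -1.34, -0.35 and -0.88.

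Among mural genes in KO, 2 of 11 fell and 3 rose, beside 13% of all genes lower and 13.8% higher, with a median of -0.02 beside 0.01 over all genes. Pdgfrb had 49.8, 58.3, 61 and 61.8 CPM at 22 °C against 82.2, 81.9, 98.4 and 73.5 CPM at 30 °C (-0.54, SE 0.102, adjusted p = 0.00137 by edgeR). Notch3 had 47, 64.8, 62 and 72.7 CPM against 88, 106, 99.5 and 82 CPM (-0.61, SE 0.154, adjusted p = 0.00945). Cspg4 rose as in WT, at 74.7, 69.8, 70.6 and 72.5 CPM against 55.1, 48.2, 48.2 and 49.2 CPM (0.52). Tagln, the smooth muscle protein SM22α, had 38.6, 47.4, 38.8 and 44.5 CPM against 29, 32.8, 28.3 and 25.7 CPM (0.55), with no overlap. Acta2, smooth muscle actin, had 46.2, 69.3, 54 and 66.1 CPM against 39.2, 45, 46.7 and 30 CPM, with overlap, and also rose by 0.55, a call that ended when cool replicate 2 or 4 or warm replicate 1 or 4 was left out, and with upper-quartile factors or library totals in place of TMM. Rgs5 had 486 to 587 CPM against 583 to 680 CPM and was not called (-0.23, adjusted p = 0.0526). Without KO replicate 1 at 22 °C the count of mural calls was again 5, beside 3838 of 14293 genes called. Without the 4 libraries rich in muscle transcripts, 3 mural members were called in place of 5, when 2115 of 14397 genes were called in place of 3772 of 14103.

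**Figure D3:**
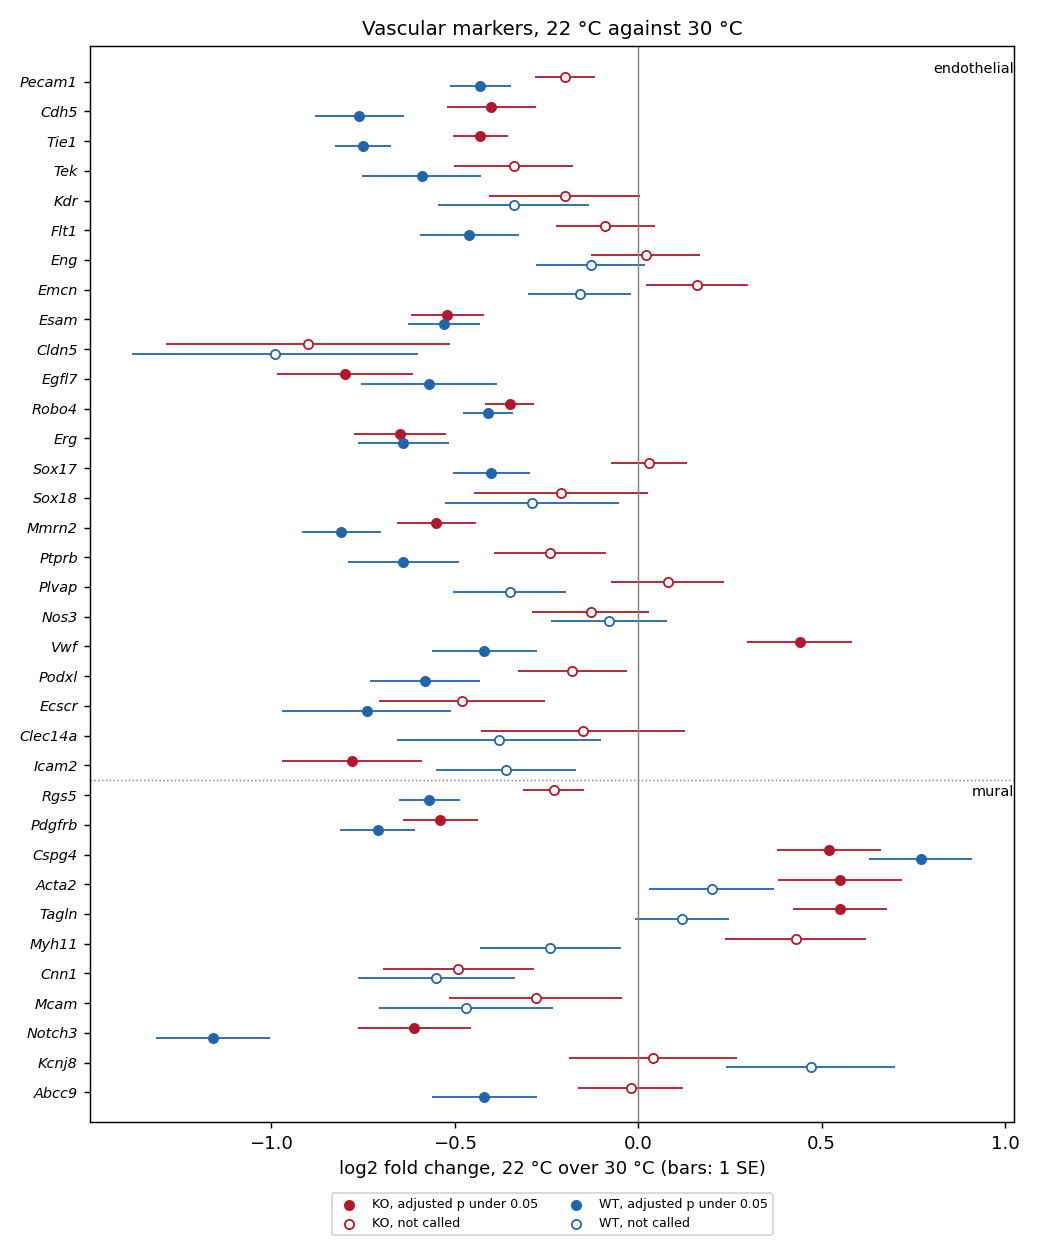
Log2 fold change of each member at 22 °C over 30 °C (points, bars 1 SE) in KO (red) and WT (blue), with filled points for an adjusted p under 0.05. All 24 endothelial points of WT lie below 0, and Vwf is the member whose calls have opposite signs.

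KO and WT were next compared within each temperature. At 22 °C, 10 of 24 endothelial members were higher in KO than in WT and none was lower, and 23 of 24 fold changes were above 0, with a median of 0.32 beside 0.02 over all genes. Of all genes, 17.6% were called and 7.52% were called higher. Summed endothelial CPM was 1876 to 2178 in KO and 1570 to 1829 in WT, without overlap. A fit of only the KO and WT libraries at 22 °C called 1 endothelial and 4 mural members in place of 10 and 8, and 634 genes in place of 2482 over the whole table. The endothelial count was 3 without KO replicate 2, 5 without KO replicate 3 or 4, 5 without WT replicate 2 and 4 without WT replicate 3, and 11 without KO replicate 1. Over the whole table these fits called 1936 to 2144 genes, in place of 2482. These KO against WT values at 22 °C use the same WT libraries as the WT temperature comparison, so the 2 sets of values are not independent.

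Tie1, called in all 18 alternatives, had 143, 158, 155 and 148 CPM in KO, against 102, 121, 104 and 125 CPM in WT (log2 fold change 0.42, SE 0.0762, adjusted p = 0.00217 by edgeR). Vwf (chromosome 6, 125546774 to 125686679, plus strand) had 35.9, 22.2, 22 and 29.3 CPM in KO against 16.9, 16.1, 18.3 and 21.6 CPM in WT (0.58, SE 0.143, adjusted p = 0.0126). Pecam1 had 195, 167, 156 and 167 CPM against 137, 125, 144 and 140 CPM (0.33, SE 0.0828, adjusted p = 0.0142). For these 3 genes each KO library was above each WT library, though for Vwf the lowest KO library and the highest WT library were 22 and 21.6 CPM. Podxl had 90.3, 148, 122 and 122 CPM against 85, 85.5, 60.8 and 89.4 CPM (0.59, SE 0.15, adjusted p = 0.0151), a call that ended without KO replicate 2, and that of Pecam1 ended without the libraries rich in muscle transcripts. Emcn had 25.9, 32.3, 34.5 and 44.8 CPM against 22.5, 28.8, 24.7 and 22.9 CPM (0.48), and its ranges overlapped. The log2 fold changes of Cdh5, Flt1, Sox17, Mmrn2 and Robo4 were 0.40, 0.44, 0.34, 0.36 and 0.20. Sox17 had 23, 19.3, 20.6 and 20.3 CPM in KO against 14.2 to 17.4 CPM in WT, and Flt1 had 237, 191, 182 and 178 CPM against 123 to 167 CPM, without overlap.

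Those last 6 calls were the least stable, since the Emcn, Cdh5 and Flt1 calls ended in 7, 8 and 6 of the 18 alternatives and those of Mmrn2, Sox17 and Robo4 in 10, 12 and 13. With any 1 of KO replicates 1 to 4 left out, the calls of Robo4, Sox17 and Mmrn2 were lost. The Flt1 call was lost without KO replicate 1 or 2 or WT replicate 2 or 3, that of Cdh5 without KO replicate 2, 3 or 4 or WT replicate 1, 2 or 3, and that of Emcn without KO replicate 2, 3 or 4 or WT replicate 1, 3 or 4. Conversely, Kdr, Eng, Sox18 and Clec14a, not called with all libraries, were called higher in KO when KO replicate 1 was left out, at 0.49, 0.44, 0.54 and 0.48. Ptprb (0.45) was called then too, and also without WT replicate 4. With all libraries Kdr had 123, 305, 281 and 294 CPM in KO and 209, 160, 209 and 256 CPM in WT, so that KO replicate 1 was below every WT library while the other 3 KO libraries were above every WT library. Esam (0.06), Erg (0.06), Egfl7 (0.08), Nos3 (0.06) and Icam2 (-0.01) were not called between KO and WT at 22 °C. Approximate 95% intervals of the log2 fold change were -0.13 to 0.25 for Esam and -0.18 to 0.31 for Erg.

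Contractile genes of smooth muscle were among the mural genes that were higher. At 22 °C, 7 of 11 mural members were higher in KO than in WT and 1, Cspg4, was lower, beside 7.52% of all genes called higher and 10.1% called lower, with a median of 0.47. Each of the 4 contractile members was called. Acta2 (chromosome 19, 34241090 to 34255590, minus strand) had 46.2, 69.3, 54 and 66.1 CPM in KO, against 35.8, 33.9, 41.3 and 30.7 CPM in WT (log2 fold change 0.73, SE 0.17, adjusted p = 0.0091 by edgeR). Tagln had 38.6, 47.4, 38.8 and 44.5 CPM against 25.5, 27.4, 31.5 and 21.8 CPM (0.67, SE 0.128, adjusted p = 0.00283). Myh11, the smooth muscle myosin heavy chain, had 42.1, 58.8, 54.1 and 62.5 CPM against 30.7, 26.3, 36.1 and 32.9 CPM (0.79, SE 0.193, adjusted p = 0.0124). In these 3 genes no KO library overlapped a WT library, and the calls held in all 18 alternatives. Cnn1, at the low level of 2.87 to 5.33 CPM in KO and 1.77 to 2.88 CPM in WT, had 0.96 (SE 0.214, adjusted p = 0.00749).

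The contractile counts carry an uncertainty of assignment. Acta2 has coding sequence similar to that of the other actin genes. Of the exon bases of Tagln, 62.4% lie under an antisense transcript that was not used here. How far either affects the counts was not tested. KO replicate 1 at 22 °C had by far the most skeletal muscle transcripts (summed list level 7089 CPM). The list summed to 47.7 to 727 CPM in the other KO libraries and 51.5 to 348 CPM in WT at 22 °C. Acta2 and Myh11 were lowest of the KO group in replicate 1, and Tagln was nearly level in replicates 1 and 3 (38.6 and 38.8 CPM). Cnn1 was lowest in replicate 3 (2.87 CPM, beside 3.95 CPM in replicate 1). The part of muscle RNA in the contractile values was not tested. Rgs5 had 486, 587, 540 and 563 CPM in KO against 405, 361, 375 and 435 CPM in WT (0.47, SE 0.083, adjusted p = 0.00187), with no overlap and a call in all 18 alternatives. Notch3 had 47, 64.8, 62 and 72.7 CPM against 35.5, 31.4, 46.8 and 52.8 CPM (0.57), and Abcc9 51.3, 55.8, 48.3 and 58.9 CPM against 45.2, 27.4, 37.4 and 48.6 CPM (0.43), and both overlapped. The Notch3 call ended without KO replicate 2 or 4 or WT replicate 1 or 2, and that of Abcc9 without any 1 of the KO libraries or WT replicate 2 or 3.

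Cspg4 was the member that fell, at 74.7, 69.8, 70.6 and 72.5 CPM in KO against 81.4, 101, 126 and 140 CPM in WT (-0.64, SE 0.141, adjusted p = 0.00683). The 4 KO values were close together and all below the WT values. Pdgfrb (0.26, adjusted p = 0.0839), Mcam (0.11) and Kcnj8 (-0.02) were not called. Without KO replicate 1, mural calls were 7 higher and 1 lower, Pdgfrb being called and Abcc9 not, beside 785 of 14293 genes higher and 1212 lower.

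**Figure D4:**
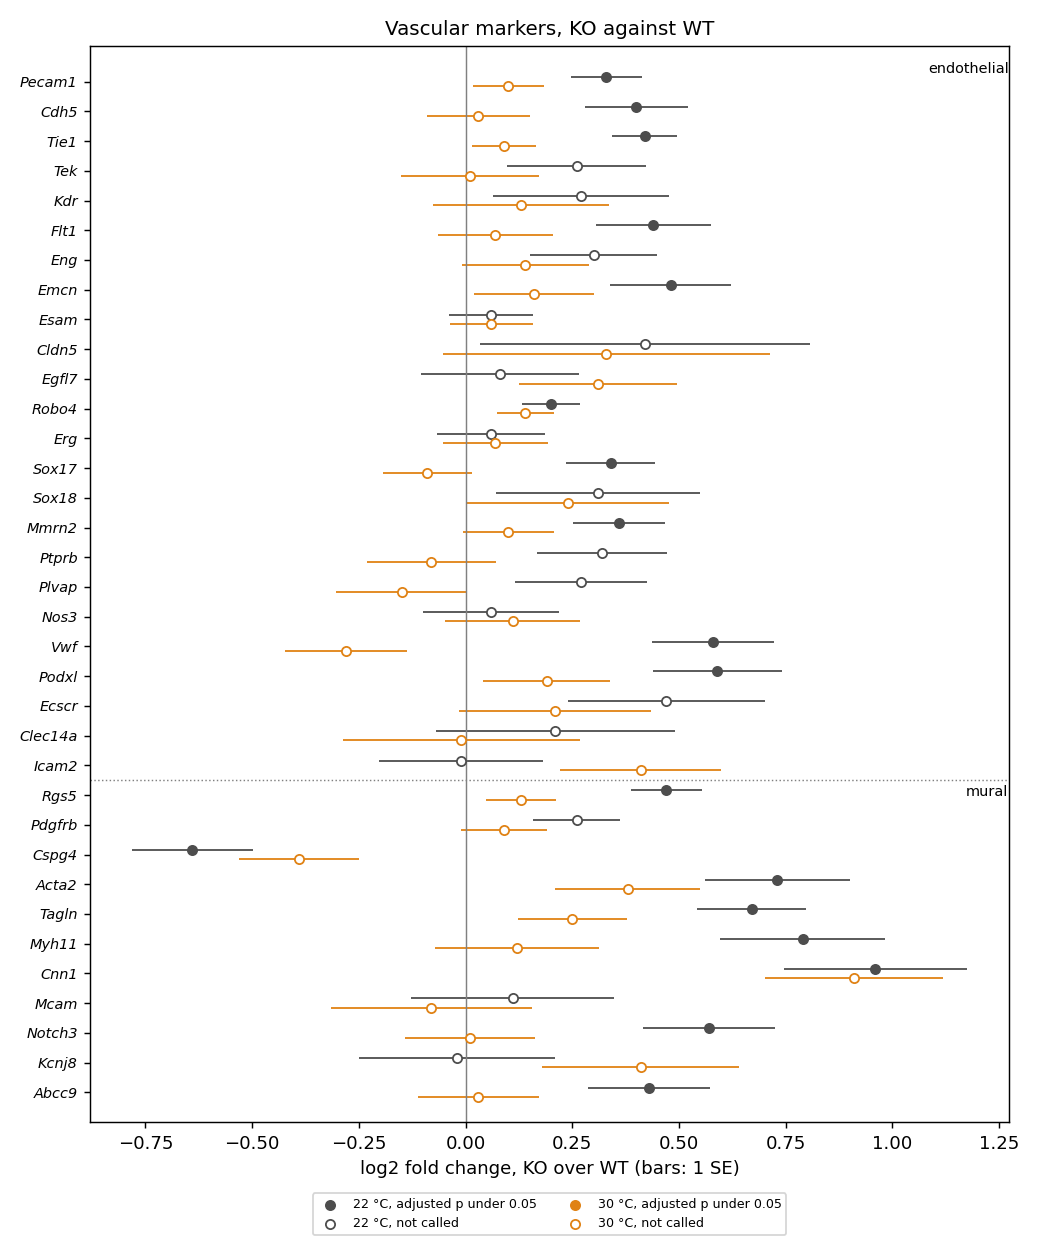
Log2 fold change of each member in KO over WT (points, bars 1 SE) at 22 °C (dark grey) and at 30 °C (orange), with filled points for an adjusted p under 0.05. At 22 °C 17 points are called above 0 and Cspg4 below it, and at 30 °C no point is called.

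At 30 °C no member was called between KO and WT. The edgeR test called 0 of 24 endothelial and 0 of 11 mural members, when only 0.0425% of all genes (6) were called (0.0284% higher and 0.0142% lower), and at an unadjusted p under 0.05 it had 1 endothelial member (Icam2) and 3 mural members (Acta2, Cnn1 and Cspg4). DESeq2 called 0 endothelial members and 1 mural member, Cnn1 (log2 fold change 0.91, adjusted p = 0.0305), when it called 0.156% of all genes. Cnn1 had 6.22, 6.1, 6.57 and 5.23 CPM in KO and 2.61, 2.98, 3.86 and 3.39 CPM in WT, and all 4 KO libraries were above all 4 WT libraries. Its edgeR adjusted p was 0.42, with an approximate 95% interval of the log2 fold change of 0.50 to 1.31. The endothelial median was 0.10 and the mural one 0.12, beside 0.02 over all genes. The approximate 95% interval was -0.06 to 0.24 for Tie1, -0.04 to 0.29 for Rgs5 and -0.26 to 0.49 for Myh11, and that of Icam2, the endothelial member with the smallest p, was 0.04 to 0.78. Cspg4 had 55.1, 48.2, 48.2 and 49.2 CPM in KO and 56.7, 59.7, 80.2 and 66 CPM in WT (-0.39), without overlap, and Acta2 had 39.2, 45, 46.7 and 30 CPM against 22.8, 31.4, 37.7 and 31.3 CPM (0.38), with overlap.

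Whether the knockout effect differed between the temperatures was tested as an interaction. Vwf was the one endothelial member called (difference of log2 fold changes 0.87, SE 0.203, adjusted p = 0.0328 by edgeR), beside 3.14% of all genes (0.752% higher and 2.39% lower). No mural member was called by edgeR or DESeq2, with 4 at an unadjusted p under 0.05 (Rgs5, Myh11, Notch3 and Tagln). Vwf had 20.5, 22.8, 18.3 and 18.7 CPM in KO against 23.9, 26.5, 23 and 24.4 CPM in WT at 30 °C, the reverse order of that at 22 °C. Its temperature calls were opposite, 0.44 in KO (adjusted p = 0.0321) and -0.42 in WT (adjusted p = 0.0288). The interaction call was lost with the replicate number as a block (adjusted p = 0.0595), without the libraries rich in muscle transcripts (0.102) and in 8 of the 16 fits that left out 1 library (0.0524 to 0.0721), those that lacked, at 22 °C, replicate 4 of KO or 1 of WT and, at 30 °C, replicate 1, 3 or 4 of KO or 1, 2 or 4 of WT. Without KO replicate 1 at 22 °C the interaction was still called, but the rise of Vwf at 22 °C within KO was not (0.28, adjusted p = 0.0959), nor was that rise when cool replicate 4 or warm replicate 1, 3 or 4 was left out or the scaling was changed to upper-quartile factors or library totals. It was also lost in a fit of only the KO libraries (0.43, adjusted p = 0.0685) and without the libraries rich in muscle transcripts (0.40, adjusted p = 0.0844). For Tie1 the interaction was 0.33 (adjusted p = 0.101) and for Rgs5 0.34 (adjusted p = 0.12), so their knockout effects were not shown to differ between temperatures.

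Ratios within a library compare classes without any scaling between libraries, and are given as descriptions. Summed mural over summed endothelial CPM was 0.496 to 0.539 in KO and 0.478 to 0.572 in WT at 22 °C, and 0.412 to 0.491 in KO and 0.439 to 0.499 in WT at 30 °C, so the balance of the classes overlapped between the genotypes at each temperature. The 4 contractile members over the other 7 mural members stood at 0.149 to 0.187 in KO at 22 °C, above all other libraries (0.0981 to 0.142 in WT at 22 °C, 0.089 to 0.124 in KO at 30 °C and 0.0756 to 0.105 in WT at 30 °C). Cspg4 over Pdgfrb was 1.16 to 1.5 in KO and 1.86 to 2.76 in WT at 22 °C, and 0.49 to 0.671 in KO and 0.675 to 1.06 in WT at 30 °C. Since Pdgfrb was itself lower at 22 °C in both genotypes, this ratio moves with both genes.

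**Figure D5:**
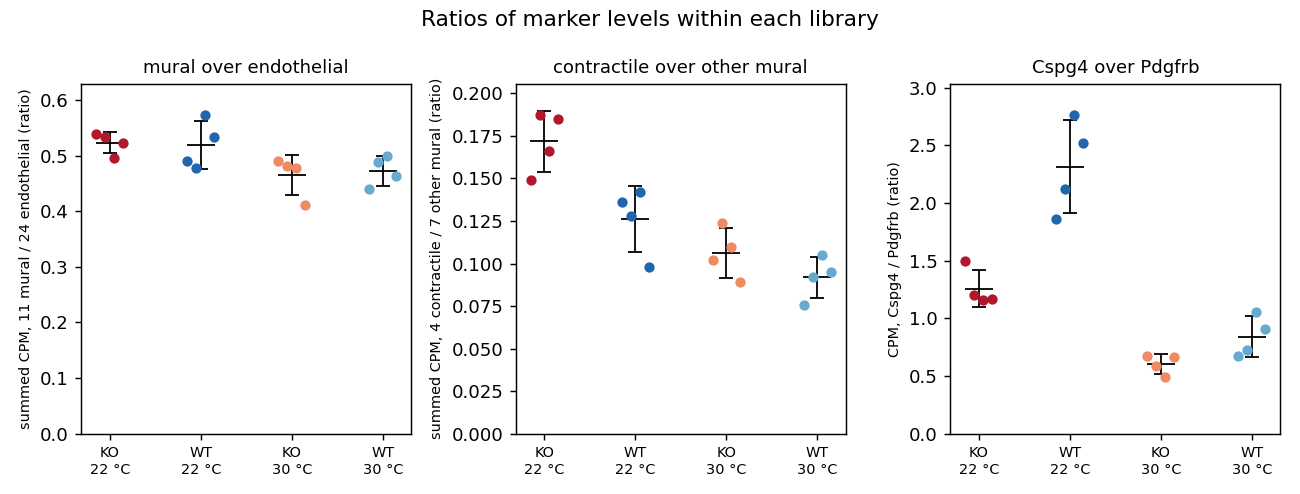
Ratios of summed CPM within each library (points), with the group mean and 1 SD, for mural over endothelial members, the 4 contractile over the 7 other mural members, and Cspg4 over Pdgfrb. The contractile ratio is highest in KO at 22 °C (0.149 to 0.187) and the Cspg4 ratio in WT at 22 °C (1.86 to 2.76).

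Lists of genes of vessel subtypes and pathways were counted against the same backgrounds, and each count that uses KO mice at 22 °C was taken again without KO replicate 1 there. Some lists repeat members, namely Tie1 and Tek (receptors), Notch3 (Notch pathway), Kdr (capillary) and Vwf (venous). Genes such as Flt4 and Dll4 are in more than a single list. The list counts are therefore not independent of the member counts or of each other. With all libraries, 13% of all genes fell and 13.8% rose in KO at 22 °C against 30 °C. For WT these shares were 17.8% and 20.5%. In KO against WT at 22 °C, 7.52% were higher and 10.1% lower. The fit without KO replicate 1, used here and for the lists below, tested 14293 genes. Between KO and WT at 22 °C it called 785 higher and 1212 lower. Within KO it called 1821 higher and 2017 lower at 22 °C. Counts of 1 gene in such short lists are near these shares. Of 8 arterial genes, 4 fell in KO and 5 in WT at 22 °C against 30 °C, and 1 was higher in KO at 22 °C, and the KO counts were again 4 and 1 without KO replicate 1. Sema3g, a semaphorin of arterial endothelium, averaged 49.3 CPM at 22 °C and 83.6 CPM at 30 °C in KO (-0.76), and 49.5 CPM and 80.7 CPM in WT (-0.71), and at 22 °C the difference between KO and WT was -0.01. Of 14 Notch pathway genes, 5 fell in KO and 8 in WT and none rose, and 6 were higher in KO at 22 °C. The 6 were Dll1, Dll4, Jag2, Notch1, Notch3 and Nrarp. Dll1, a Notch ligand, had 10.5 CPM in KO and 5.92 CPM in WT at 22 °C (0.83), and Nrarp, a Notch target, 21.1 and 13.7 CPM (0.62). Dll4, the ligand of tip cells, had 78.1 CPM in KO replicate 1 and 25.7 to 30.7 CPM in the other KO libraries at 22 °C. Without KO replicate 1, 3 Notch pathway genes were higher in KO at 22 °C in place of 6, with Dll1 and Notch3 kept and Heyl, a Notch target, gained (0.51, adjusted p = 0.0281). The calls of Dll4 (0.40, adjusted p = 0.0579), Jag2 (0.35, 0.113), Notch1 (0.54, 0.082) and Nrarp (0.31, 0.142) were lost. Within KO, 7 in place of 5 were then lower at 22 °C than at 30 °C. Of 8 receptors and co-receptors of vascular ligands, 3 fell in KO and 5 in WT, and 2 were higher in KO at 22 °C. These 2 were Tie1 and Flt4, the VEGF-C receptor (19.6 CPM in KO, 11.5 CPM in WT, log2 fold change 0.77). The KO counts were again 3 and 2 without KO replicate 1.

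Among 18 endothelial transcription factors, members Erg, Sox17 and Sox18 included, 7 fell and 1 rose in KO at 22 °C against 30 °C. In WT 10 fell and 2 rose, and 7 were higher and none lower in KO than in WT at 22 °C. Over all genes, 13% fell and 13.8% rose in KO, and 17.8% fell and 20.5% rose in WT. The share higher in KO at 22 °C was 7.52%. Sox7, a SOX factor related to Sox17, had 30, 28.9, 29.4 and 33.8 CPM in KO and 14.7, 17.5, 15.3 and 18.6 CPM in WT at 22 °C (0.89, SE 0.13, adjusted p = 4.34e-04 by edgeR), with no overlap, and its interaction was 0.70 (adjusted p = 0.0484), a call lost without KO replicate 1 at 22 °C (0.71, adjusted p = 0.0631). The ETS factors Ets1, Ets2 and Fli1 were higher in KO at 22 °C by 0.59, 0.69 and 0.48, and Sox17, Lmo2 and Tal1 made up the 7. When KO replicate 1 was left out, 8 factors were higher in KO at 22 °C, with Sox17 lost and Gata2 (0.44) and Sox18 (0.54) gained, and within KO 6 were lower and 1 higher at 22 °C. Foxo1 rose at 22 °C in both genotypes (0.93 in KO and 1.08 in WT) and is also an adipocyte gene. Of 11 VEGF, angiopoietin and related ligands tested, 2 fell and 1 rose in KO, and 3 fell in WT. Without KO replicate 1 at 22 °C, 5 of 12 ligands tested were lower in KO and none higher, with the rise of Vegfd lost and Pgf, Adm and Pdgfa gained as lower. Pdgfb, the ligand by which endothelium recruits pericytes, was the 1 ligand higher in KO at 22 °C, at 108, 87.3, 87.7 and 96.1 CPM in KO against 47.5, 56.1, 62.2 and 67.6 CPM in WT (0.70, SE 0.119, adjusted p = 0.00131), and it was the 1 called without KO replicate 1 as well. Angpt1, the TIE2 agonist made by mural cells, fell at 22 °C in both genotypes (-0.88 in KO and -0.95 in WT).

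Further mural genes were counted the same way. Beside them, 13% of all genes fell and 13.8% rose in KO, and 17.8% fell and 20.5% rose in WT. In KO at 22 °C, 7.52% of all genes were higher than in WT. Of 10 further pericyte genes, 6 fell in KO and 7 fell and 1 rose in WT at 22 °C, and 1, P2ry14, was higher in KO at 22 °C, with 2 higher (Gucy1b1 gained at 0.53) without KO replicate 1. Gucy1b1, a subunit of the nitric oxide receptor guanylyl cyclase, had log2 fold changes of -1.03 in KO and -1.19 in WT. Of 12 further smooth muscle genes tested, 3 rose and none fell in KO at 22 °C against 30 °C, and 1 rose and 3 fell in WT. In KO at 22 °C 5 were higher than in WT and none lower, and all 12 fold changes were above 0. Their list summed to 2109 CPM in KO replicate 1 and 608 to 742 CPM in the other KO libraries at 22 °C. The WT libraries at 22 °C had 494 to 586 CPM. Cald1, which encodes caldesmon, had 73.3, 59.6, 63.7 and 59 CPM in KO against 46.9, 31, 42.2 and 47.2 CPM in WT (0.61), and Flna, filamin A, had 0.61. Srf (0.92), whose value in KO replicate 1 was 149 CPM against 45.8 to 56.5 CPM in the other KO libraries, Smtn (0.62) and Lmod1 (0.74) were the other 3. Once KO replicate 1 was left out, 4 were higher in KO at 22 °C, with Lmod1 (0.56, adjusted p = 0.101) and Srf (0.36, adjusted p = 0.165) lost and Myl9 (0.46, adjusted p = 0.0166) gained. Within KO, 2 then rose at 22 °C against 30 °C and 2, Smtn and Tpm1, fell. Tpm1, Tpm2 and Des of this list are also skeletal muscle genes, and were not called between KO and WT at 22 °C.

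Capillary, venous, lymphatic and tip cell genes were counted as well. The shares of all genes beside them were 13% lower and 13.8% higher in KO, and 17.8% lower and 20.5% higher in WT. For KO against WT at 22 °C, 7.52% of all genes were called higher. Of 9 capillary genes, 3 fell and 1 rose in KO and 3 fell in WT at 22 °C. Lpl was the 1 higher in KO at 22 °C (6912 CPM in KO, 3696 CPM in WT, log2 fold change 0.90). It encodes lipoprotein lipase, an enzyme that adipocytes make, so its call cannot be assigned to capillary cells. Cd300lg (0.37) and Kdr (0.49) joined Lpl without KO replicate 1. Of 8 venous genes, 2 rose in KO and 5 fell in WT, and 4 were higher in KO at 22 °C (Vcam1, Selp, Sele and Vwf). Sele, E-selectin, had 7.56 CPM in KO replicate 1 and 0.772 to 1.6 CPM in the other KO libraries at 22 °C, and Selp stood apart there as given above. In the fit that left out KO replicate 1, 3 venous genes were higher in KO at 22 °C, with Selp (-0.06, adjusted p = 0.962) and Sele (0.94, adjusted p = 0.0995) lost and Ephb4, an ephrin receptor of venous endothelium (0.50, adjusted p = 0.00583), gained. Within KO no venous gene then rose at 22 °C against 30 °C, and Sele was lower (-1.78). Of 7 tip cell genes tested, 2 fell in KO and 3 in WT and 2, Dll4 and Nid2, were higher in KO at 22 °C, with 4 lower within KO and Nid2 alone higher in KO at 22 °C once KO replicate 1 was left out. Of 6 lymphatic genes tested, 1, Flt4, fell in WT and was higher in KO at 22 °C, with and without KO replicate 1, and Pdpn was lower in KO at 22 °C than at 30 °C without it (-0.88). No gene of any of these lists was called between KO and WT at 30 °C, where 0.0425% of all genes were.

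Markers of other cells moved as follows in the same libraries. Among all genes, 13% fell and 13.8% rose in KO at 22 °C, and 17.8% fell and 20.5% rose in WT. Between KO and WT at 22 °C, 7.52% of all genes were higher and 10.1% lower. Several counts are near these shares, such as 2 of 10 fibroblast and progenitor genes that fell in KO. Of 10 macrophage genes, 8 fell at 22 °C in KO (7 without KO replicate 1) and 8 in WT, with summed levels of 134 to 165 CPM in KO and 117 to 248 CPM in WT at 22 °C, and 248 to 294 CPM in KO and 221 to 343 CPM in WT at 30 °C. Of 10 fibroblast and progenitor genes, 2 fell in KO, and 5 fell and 1 rose in WT. Of 8 adipocyte genes, 3 rose and 1 fell in KO and 5 rose in WT, and their summed level was 19427 to 24406 CPM in KO and 18744 to 30857 CPM in WT at 22 °C, above 12697 to 14815 CPM in KO and 12354 to 13656 CPM in WT at 30 °C. Of 11 cell cycle genes tested, 11 fell in KO and 9 in WT. Between KO and WT at 22 °C, 0 of 10 macrophage genes, 2 of 10 fibroblast genes (Dcn and Lum, both higher, at 0.54 and 0.68), and 1 higher and 2 lower of 8 adipocyte genes were called, and without KO replicate 1 these counts were 0, 2, and 0 higher and 2 lower. No skeletal muscle, lymphocyte or erythroid gene was called in any comparison, and 1 of 6 Schwann cell genes rose at 22 °C in each genotype. The part of these cell types in the vascular values was not tested.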

How the data were processed

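The deposited table held raw read counts per Ensembl gene for 16 libraries of mouse brown fat, made by the authors. FastQC 0.10.1, STAR 2.4.2a and edgeR 3.14.0, and the builds GRCm38 and mm10, are named in the submitters' processing notes. The sources used here do not name the counting program, its annotation or its strand setting, so antisense neighbours could share counts. Symbols and GRCm38 coordinates came from GENCODE M21 by Ensembl identifier, and 1317 of 38924 identifiers, with at most 0.131% of a library's counts, had no symbol. Promoter sequences came from RefSeq.

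From these counts, edgeR 4.0.16 in R 4.3.3 was run with TMM factors and filterByExpr (minimum count 10), which left 14103 genes. A quasi-likelihood model of the 4 groups was fitted to all 16 libraries, with 5 contrasts, namely temperature within each genotype, genotype within each temperature and their interaction. A gene was called at a Benjamini-Hochberg adjusted p under 0.05 over all genes tested. The SE of a log2 fold change is its size over the square root of the F statistic, and 95% intervals are 1.96 SE on either side. These intervals are approximate and somewhat narrower than the F test implies. For Robo4 in KO against WT at 30 °C the interval was 0.01 to 0.27, with an unadjusted p of 0.0564 by edgeR. The typical biological coefficient of variation was 22.5%. The scripts were tested on simulated data.

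Members and further gene lists were chosen with earlier results of these data known, so their counts are descriptions. Every member is accounted for. Fold change, SE and adjusted p are given together for at most 6 members of a class per comparison, those with the smallest p, and at most 4 genes of a further list are named by the smallest p, apart from groups of calls small enough to name in full, which were chosen after their values were seen. Alternatives were other scaling factors, other filters, DESeq2 1.42.0, fits of the compared groups alone, a replicate block, each library left out in turn and the omission of 4 libraries whose skeletal muscle genes took over 0.1% of counts. The fit with library totals only, and the counts of further lists without KO replicate 1 at 22 °C, were chosen after seeing the data.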

Additional observations from a re-analysis of the deposited data

Results flagged for a closer look

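A library was picked out where its gap to the nearest of the other 3 of its group was, as a share of the group's range, above the 95% critical value of Dixon's test. This happened 12 times among 140 combinations of member and group, and chance alone gives about 1 in 20 (5%).

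KO replicate 1 at 22 °C accounted for 5 of them, with Kdr at 123 CPM (281 to 305 CPM in the other 3 libraries), Cldn5 at 123 CPM (44.7 to 55.2 CPM), Egfl7 at 69.9 CPM (114 to 117 CPM), Ecscr at 19.7 CPM (7.9 to 9.29 CPM) and Clec14a at 2.93 CPM (9.79 to 10.5 CPM). In KO at 30 °C, replicate 3 was high for Sox18 (87.7 CPM, 56.6 to 58.5 CPM in the others) and Ecscr (18.6 CPM, 14.8 to 15.3 CPM), and replicate 1 was high for Cspg4 (55.1 CPM, 48.2 to 49.2 CPM). In WT at 22 °C, Plvap was low in replicate 1 (9.41 CPM, 15.3 to 16.1 CPM), Sox18 was high in replicate 2 (50.9 CPM, 42.8 to 43.9 CPM), Podxl was low in replicate 3 (60.8 CPM, 85 to 89.4 CPM) and Sox17 was low in replicate 4 (14.2 CPM, 17.1 to 17.4 CPM).

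Vwf was the member whose knockout effect differed between 22 °C and 30 °C by the interaction test, with a difference of log2 fold changes of 0.87 (adjusted p = 0.0328 by edgeR).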

How the results depend on the processing

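No called member changed sign under any alternative. Of 53 member calls in the 5 comparisons, 29 were kept under every alternative run, and 125 of the 961 values of called members under alternatives lost their call, while 58 values of uncalled members gained one. With library totals only, mural calls in WT between temperatures numbered 8 in place of 5, and the interaction had 3 endothelial calls and 1 mural call in place of 1 and 0. Of all genes, that scaling called 50% in place of 38.3% in WT between temperatures, and 6.33% in place of 3.14% in the interaction. A fit of only the groups compared left 1 endothelial and 4 mural calls between KO and WT at 22 °C, when it called 634 of 13149 genes in place of 2482 of 14103. Without the libraries rich in muscle transcripts, mural calls between temperatures in KO numbered 3 and endothelial interaction calls 0. That fit called 2115 of 14397 genes between temperatures in KO and 96 in the interaction, in place of 3772 and 443 of 14103. DESeq2 called 1 mural member at 30 °C, and 0.156% of all genes. The cause of these shifts was not tested. Upper-quartile factors moved the median of all genes by -0.10 between temperatures in each genotype, and library totals only by -0.28 in WT between temperatures, by 0.13 between KO and WT at 22 °C and by 0.18 in the interaction.

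Leaving out 1 library at a time gave 7 to 12 endothelial and 4 to 6 mural calls between temperatures in KO and 12 to 16 and 4 to 6 in WT. Between KO and WT it gave 3 to 11 endothelial and 6 to 9 mural calls at 22 °C and 0 of either at 30 °C, and in the interaction 0 to 3 endothelial and 0 mural calls. Over all genes these fits called 2729 to 3838 between temperatures in KO (3772 with all libraries) and 4509 to 5570 in WT (5406). Between KO and WT they called 1936 to 3080 at 22 °C (2482) and 2 to 7 at 30 °C (6), and 147 to 1085 in the interaction (443). Genes tested numbered 14249 to 14336, beside 14103 with all libraries.

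The labels do not say whether the replicate number pairs libraries. Deviations of same-numbered libraries from their group means had correlations from -0.503 to 0.452. Differently numbered libraries were not compared, so these values cannot settle whether there is a pairing. With the replicate number as a block, endothelial and mural calls numbered 10 and 5 between temperatures in KO and 15 and 5 in WT. They numbered 8 and 7 between KO and WT at 22 °C, and 0 and 0 both at 30 °C and in the interaction. Of all 14103 genes the block fit called 3406 between temperatures in KO and 5169 in WT. Between KO and WT it called 2092 at 22 °C and 6 at 30 °C, and in the interaction 186.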
